A study of Mus musculus with 9 samples.

Results

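A set of 10 transcription factor genes that define and maintain the insulin-secreting beta cell was examined in RNA sequencing libraries of pancreatic islets: Pdx1, Mafa, Nkx6-1, Nkx2-2, Neurod1, Pax6, Isl1, Foxa2, Rfx6 and Mnx1. They were chosen by name, and all 10 were found among the 56941 Ensembl identifiers of the count table and passed the low-count filter that left 18548 genes. The islets came from male C57BL/6J mice labelled WT, which entered the study at 15 weeks of age and spent 9 months on a diet. Of the 9 libraries, 3 came from a control diet of 10% fat (low fat diet, LFD), 2 from a diet of 60% fat (high fat diet, HFD) and 4 from a diet of 89.9% fat (ketogenic diet, KD). No allele or agent other than diet was named in the labels, and nothing there said whether a library held the islets of a single mouse or of several pooled mice. The p-values below therefore measure only the spread between these libraries.

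Beta cells keep their identity through a small network of factors that bind the insulin genes, the genes for glucose sensing and secretion, and each other's genes. Pdx1, Mafa, Nkx6-1 and Mnx1 are mostly restricted to beta cells within the adult mouse islet, with Pdx1 also in delta cells, while Pax6, Isl1, Neurod1, Nkx2-2 and Rfx6 are shared by several or all islet endocrine cell types, and Foxa2 is also made by acinar and duct cells. Loss of single members in adult beta cells is known to lower insulin output and to let genes of other islet cells appear.

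Library totals ran from 15513502 to 26588390 counts, and a member had between 98 and 7250 counts in a library. Levels are given as CPM, counts scaled to a common library size, on library sizes scaled by the TMM method. Isolated islets carry acinar tissue, the enzyme-secreting part of the pancreas, and the 20 acinar markers held 14.4% to 34.0% of counts on LFD, 10.7% and 17.9% on HFD, and 57.9%, 42.5%, 53.9% and 19.5% in KD replicates 1 to 4. None of the 20 was at 0 in any library. The 6 beta cell markers, led by the insulin genes, held 5.64% to 9.35% of counts on LFD, 11.4% and 12.8% on HFD and 1.65% to 12.7% on KD, so islet RNA was present in all 9 libraries. The 9 lymphocyte markers held 0.00502% to 0.0214% of counts on LFD, 0.00283% and 0.0026% on HFD and 0.000248% to 0.00104% on KD, where up to 6 of the 9 were at 0, and edgeR called 9 of 9 lower on KD than on LFD. What part these differences in tissue content have in the values below was not tested. The 10 transcription factors together held 0.0566% to 0.107% of counts on LFD, 0.0923% and 0.155% on HFD and 0.0309% to 0.129% on KD. In such bulk libraries fewer beta cells and less of a transcript per beta cell cannot be told apart.

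Per length of transcript and averaged over the 9 libraries, Mafa was the most abundant of the set and Mnx1 the least. On a scale of CPM per kilobase of merged exons (RPKM), Mafa measured 58.3 ± 31.6 over the 9 libraries (SD, n = 9) and Nkx6-1 41.5 ± 11.1 (SD, n = 9). Mafa lay above Nkx6-1 in 7 of 9 libraries, and Nkx6-1 lay above Pdx1 (30.1 ± 7.88) in all 9. The first place of Mafa depended on the diet. On LFD its mean of 32.2 RPKM was below the 38.5 RPKM of Nkx6-1, and in HFD replicate 1 Rfx6 (44.5 RPKM) exceeded Mafa (33.8 RPKM). Rfx6 (24.3 ± 10.5), Neurod1 (19.6 ± 4.14), Isl1 (16.5 ± 4.01), Nkx2-2 (15.6 ± 4.0) and Foxa2 (15.5 ± 2.64) followed, and neighbours in this stretch changed places from library to library. Rfx6, for example, exceeded Neurod1 in 5 of 9 libraries, and Nkx2-2 exceeded Foxa2 in 4. Pax6 (10.9 ± 2.36) lay below Foxa2, and Mnx1 (4.51 ± 1.22) below Pax6, in all 9 libraries. The order depended on the length used. The merged exons of Pax6 span 11694 bases and its longest transcript 4427, and per longest transcript Pax6 measured 28.8 RPKM and stood in place 4. On that length Isl1 measured 25.96 RPKM and Nkx2-2 21.2, both in their former places, Neurod1 went from place 5 to place 8, and Mafa, Nkx6-1, Pdx1 and Mnx1 kept theirs.

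**Figure D1:**
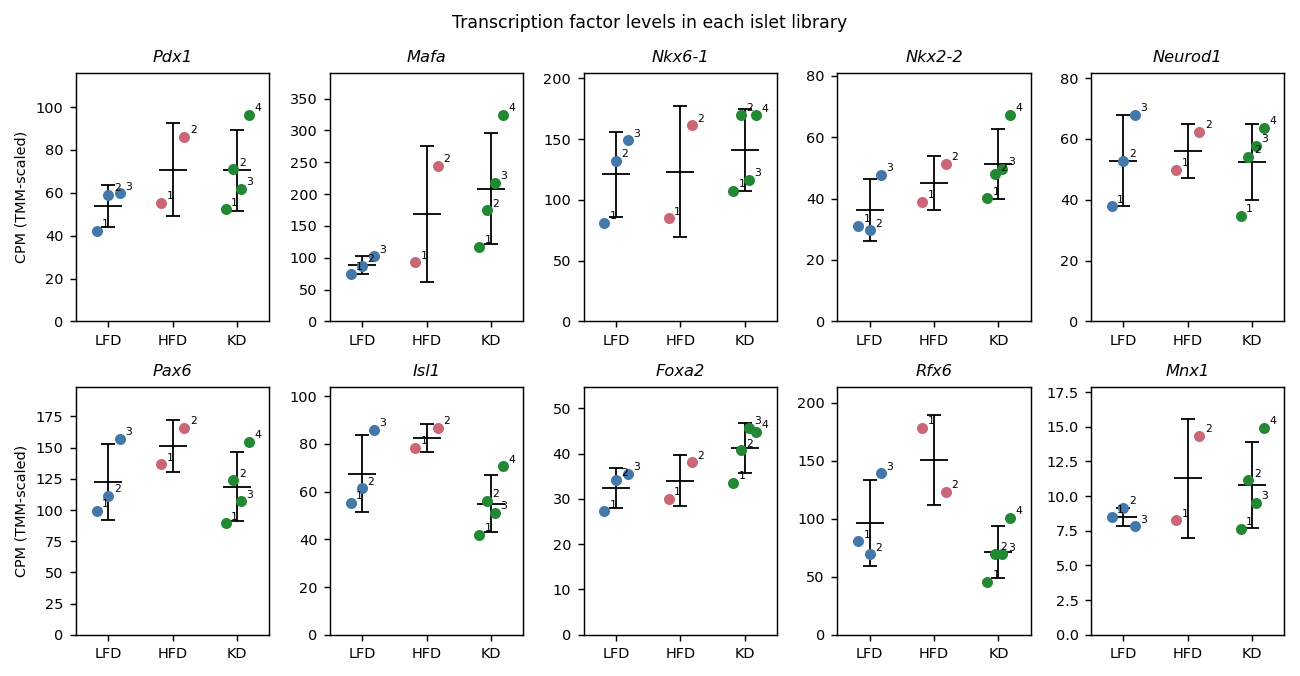
CPM of each factor (vertical axis, from 0) in every library, grouped by diet on the horizontal axis; the small numbers are the replicate numbers, the long tick is the mean and the bar its SD (n = 3 LFD, 2 HFD, 4 KD). Mafa is the gene whose KD libraries, 117 to 325 CPM, all lie above its LFD libraries, 74.7 to 103 CPM.

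The comparison of KD with LFD asked what a ketogenic diet changes against the control diet. Mafa was 2.37-fold higher on KD in the fitted model, Nkx2-2 1.42-fold, Pdx1 1.31-fold, Mnx1 1.28-fold, Foxa2 1.27-fold and Nkx6-1 1.17-fold higher, while Rfx6 and Isl1 were at 0.742 and 0.816 of the LFD level and Pax6 and Neurod1 within 4% of it. Of the 10, 6 were above 0 in log2 fold change, against 48.1% of all genes. None of these differences passed the edgeR quasi-likelihood test after Benjamini-Hochberg adjustment over all genes. That test called 4.12% of the 18548 genes, and 0 of the 10 factors. At an unadjusted p below 0.05 it gave 3 factors, Mafa, Nkx2-2 and Foxa2, where 22.7% of all genes reached that level, so the share of factors was near the background. The median log2 fold change was 0.28 over the factors and -0.02 over all genes tested. Over 11 pan-endocrine genes, such as the chromogranins, it was also 0.28, with 10 of 11 above 0. The TMM factors, scaled library size over library total, were 1.05 to 1.25 on LFD and 0.541, 0.844, 0.618 and 1.17 in KD replicates 1 to 4. On unscaled totals the 10 factors together held a mean of 0.0812% of counts on LFD and 0.0695% on KD. For the set as a whole, the direction therefore depended on the scaling.

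Mafa (ENSMUSG00000047591), a basic leucine zipper factor that switches on late in beta cell maturation and drives insulin transcription in response to glucose, measured 74.7, 87.0 and 103 CPM in LFD replicates 1 to 3. It measured 117, 174, 218 and 325 CPM in KD replicates 1 to 4. On the scaled sizes every KD library lay above every LFD library, and KD replicate 4 was highest. On unscaled totals KD replicate 1 lay below LFD replicate 1, with 1510 of 23746412 counts against 1218 of 15513502. Mafa was the only factor of the 10 whose KD and LFD libraries did not overlap on the scaled sizes, where 19.7% of all genes showed no overlap. Its log2 fold change was 1.24 (SE 0.38, 95% interval 0.39 to 2.10, edgeR adjusted p = 0.0980). The DESeq2 Wald test called Mafa (adjusted p = 0.0104) among 9.57% of all genes, and limma-voom with sample quality weights called it (adjusted p = 0.0284) among 10.1%. Over all 19 alternatives of the processing the log2 fold change of Mafa stayed between 0.90 and 1.74 and its adjusted p between 0.0104 and 0.281.

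Pdx1 (ENSMUSG00000029644) is the homeodomain factor that starts pancreas formation and later binds the insulin promoters. Its levels were 42.3, 59.1 and 59.7 CPM on LFD and 52.4, 70.9, 62.0 and 96.5 CPM on KD. The diets overlapped, since KD replicate 1 lay below LFD replicates 2 and 3. The log2 fold change of Pdx1 was 0.39 (SE 0.23, 95% interval -0.11 to 0.89, edgeR adjusted p = 0.329). Nkx6-1 (ENSMUSG00000035187), a homeodomain repressor that keeps alpha cell genes silent in beta cells, measured 81.4, 132 and 149 CPM on LFD and 107, 170, 116 and 170 CPM on KD. The lowest library was LFD replicate 1, and otherwise the diets were interleaved. Its log2 fold change was 0.22 (SE 0.28, 95% interval -0.39 to 0.83, edgeR adjusted p = 0.671).

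Mnx1 (ENSMUSG00000001566), a homeodomain factor that suppresses non-beta programmes, was the least abundant, at 8.52, 9.14 and 7.83 CPM on LFD and 7.62, 11.1, 9.53 and 14.9 CPM on KD. Its KD libraries reached both below and above the LFD libraries (log2 fold change 0.35, SE 0.25, edgeR adjusted p = 0.434). Nkx2-2 (ENSMUSG00000027434), a homeodomain factor needed for beta cells to form and to stay distinct from alpha cells, measured 31.1, 29.7 and 47.7 CPM on LFD and 40.1, 47.9, 49.6 and 67.3 CPM on KD. Only KD replicate 1 lay within the LFD range. The log2 fold change of Nkx2-2 was 0.50 (SE 0.21, 95% interval 0.03 to 0.97, edgeR adjusted p = 0.192), and limma-voom called it (adjusted p = 0.0419, its alternatives spanning 0.00748 to 0.806). Exons of Nkx2-2 share 278 bases with the antisense gene Nkx2-2os in GENCODE M21, and whether the counting used strand was not given in the sources used here.

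Foxa2 (ENSMUSG00000037025) is a forkhead factor that opens chromatin ahead of the other members. It measured 27.3, 34.2 and 35.6 CPM on LFD and 33.6, 40.7, 45.7 and 44.8 CPM on KD, and KD replicate 1 alone lay within the LFD range. The log2 fold change of Foxa2 was 0.35 (SE 0.15, 95% interval 0.01 to 0.69, edgeR adjusted p = 0.210). Neurod1 (ENSMUSG00000034701), the helix-loop-helix activator of the insulin genes, measured 37.9, 52.8 and 68.0 CPM on LFD and 34.8, 54.1, 57.8 and 63.6 CPM on KD. The KD libraries spanned nearly the same range as the LFD libraries, and the log2 fold change was -0.01 (SE 0.23, 95% interval -0.51 to 0.49, edgeR adjusted p = 0.987). Its exons share 201 bases with Cerkl on the same strand, so a part of its counts is uncertain.

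Pax6, Isl1 and Rfx6 belong to the shared endocrine programme. Pax6 (ENSMUSG00000027168), a paired-domain factor required for the hormone genes, measured 99.5, 111 and 157 CPM on LFD and 89.5, 124, 107 and 155 CPM on KD (log2 fold change -0.05, SE 0.21, 95% interval -0.50 to 0.41, edgeR adjusted p = 0.923). The LFD and KD libraries of Pax6 were interleaved. Isl1 (ENSMUSG00000042258), a LIM-homeodomain factor that works with Neurod1 on the insulin enhancer, measured 55.4, 61.3 and 85.8 CPM on LFD and 42.0, 56.2, 51.2 and 70.6 CPM on KD (log2 fold change -0.29, SE 0.19, edgeR adjusted p = 0.385). KD replicates 1 and 3 lay below all LFD libraries of Isl1. Rfx6 (ENSMUSG00000019900), a winged-helix factor that sustains genes of secretion and calcium entry, measured 80.7, 69.2 and 139 CPM on LFD and 45.8, 69.8, 69.5 and 101 CPM on KD (log2 fold change -0.43, SE 0.29, edgeR adjusted p = 0.407). LFD replicate 3 was the highest of these Rfx6 libraries and KD replicate 1 the lowest, and without LFD replicate 3 the log2 fold change of Rfx6 was -0.068 (edgeR adjusted p = 0.924).

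**Figure D2:**
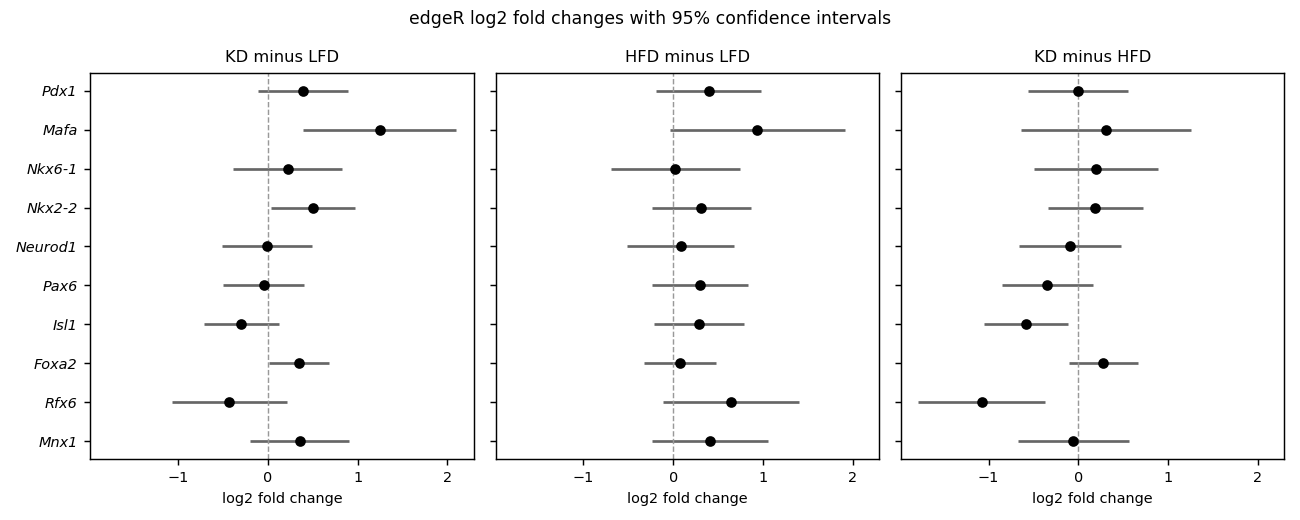
Log2 fold changes from the edgeR fit (points) with 95% confidence intervals (lines) for each factor in the comparisons of the diets. The intervals of Mafa, Nkx2-2 and Foxa2 lie above 0 in KD minus LFD, and those of Isl1 and Rfx6 below 0 in KD minus HFD, before any adjustment for the number of genes tested.

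With the acinar score, the mean log2 CPM of the acinar markers, as a covariate in the same edgeR model, 3 of the 10 factors were called higher on KD than on LFD, where that model called 7.6% of all genes and 4.7% in its joint test. They were Pdx1 (log2 fold change 0.78, adjusted p = 0.00725), Nkx2-2 (0.85, adjusted p = 0.00748) and Mafa (1.74, adjusted p = 0.0130). Over the alternatives the adjusted p of Pdx1 ran from 0.00725 to 0.920. There, Neurod1, Pax6 and Isl1 also had log2 fold changes above 0, of 0.35, 0.32 and 0.03, none of them called. The KD libraries held both the highest acinar shares and the diet, so the covariate and the diet overlap, and the part of acinar tissue in these values was not tested.

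The comparison of HFD with LFD used the same 3 LFD libraries. Its fitted log2 fold changes of all 10 factors were above 0, between 0.03 for Nkx6-1 and 0.94 for Mafa, where 49.8% of all genes were above 0. The pan-endocrine genes were above 0 as well, 11 of 11, with a median of 0.38 beside 0.31 for the factors. On libraries scaled by those 11 genes, 7 of the 10 factors lay below 0. That scaling moved the median of all genes to -0.43 and that of the factors to -0.07. The edgeR test called 0 of the factors and 0% of all genes, with 0 factors at an unadjusted p below 0.05 against 9.99% of genes. DESeq2 and limma-voom also called 0 of the 10, among 1.45% and 0.0539% of all genes. Mafa measured 92.7 and 244 CPM in HFD replicates 1 and 2, so HFD replicate 1 lay inside the LFD range and HFD replicate 2 well above it (log2 fold change 0.94, SE 0.44, edgeR adjusted p = 0.512). Pdx1 had the same layout, with 55.4 and 86.1 CPM, and so did Mnx1, with 8.25 and 14.3 CPM. Rfx6 was the exception in order, with 178 CPM in HFD replicate 1 and 123 CPM in HFD replicate 2 (log2 fold change 0.65, SE 0.34, edgeR adjusted p = 0.555). In HFD replicates 1 and 2, Nkx6-1 measured 84.9 and 161 CPM, Nkx2-2 38.9 and 51.2, Neurod1 49.8 and 62.4, Foxa2 30.0 and 38.1, Pax6 137 and 166, and Isl1 78.4 and 86.7. No factor had HFD and LFD libraries without overlap, where 27.5% of all genes did.

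The direct comparison of the fat-rich diets, KD minus HFD, placed Rfx6 and Isl1 lower on KD. The mean level of Rfx6 was 151 ± 38.9 CPM (SD) in the 2 HFD libraries and 71.4 ± 22.5 CPM (SD) in the 4 KD libraries, with no overlap between the diets. Its log2 fold change was -1.08 (SE 0.32, 95% interval -1.78 to -0.37, edgeR adjusted p = 0.125). For Isl1 the means were 82.6 ± 5.90 CPM (SD, 2 libraries) and 55.0 ± 11.9 CPM (SD, 4 libraries), again with no overlap, and a log2 fold change of -0.58 (SE 0.21, 95% interval -1.05 to -0.12, edgeR adjusted p = 0.154). These were the 2 factors of 10 whose libraries did not overlap, against 33.9% of all genes, and the 2 at an unadjusted p below 0.05, against 22.7%. Of the 10, 4 were above 0, against 46.6% of all genes. The edgeR test called 0% of all genes and none of the factors. DESeq2 called Rfx6 (adjusted p = 0.0294) among 9.92% of the genes it tested, and limma-voom called 0 factors and 0% of all genes.

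Leaving out KD replicate 4, the KD library with the lowest acinar share, turned both into calls by edgeR, with an adjusted p of 0.0300 for Rfx6 and 0.0416 for Isl1, in a fit that called 9.84% of all genes, and 10% in its joint test. Over the alternatives the adjusted p of Rfx6 ran from 0.00862 to 0.704 and that of Isl1 from 0.0129 to 0.980. The log2 fold change of Rfx6 was below 0 in every alternative run, between -1.48 and -0.45, while that of Isl1 was 0.02 with the acinar covariate. Pax6 was lower on KD by a log2 fold change of -0.35 (SE 0.23) and the other 7 factors lay between -0.09 and 0.31, with edgeR adjusted p from 0.371 to 0.995. The joint edgeR test over the 3 diets called 0 of the 10 factors and 2.17% of all genes, with adjusted p of 0.141 for Rfx6 and 0.157 for Mafa. It reached an unadjusted p below 0.05 for those 2 factors and for 24.6% of all genes. The joint tests of DESeq2 and limma-voom called 2 and 1 of the factors, among 12.6% and 8.58% of the genes they tested.

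To look at the makeup of the set apart from its amount, each factor was divided by the geometric mean of the 10 in the same library, a quantity that no scaling of libraries can change. The geometric mean itself was 54.3 ± 10.8 CPM (SD) over the 3 LFD libraries, 68.7 ± 15.7 over the 2 HFD and 63.7 ± 15.5 over the 4 KD libraries, and the diets overlapped. Mafa stood at 1.63 times the geometric mean on LFD, 2.22 times on HFD and 3.13 times on KD. On the log2 scale its relative level was 0.70 ± 0.06 (SD) for LFD, 1.15 ± 0.66 for HFD and 1.65 ± 0.29 for KD. The lowest KD value of Mafa, 1.36, lay above the highest LFD value, 0.74, and HFD replicate 2 reached 1.61.

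Relative to the set, Rfx6, Isl1 and Pax6 were lower on KD than on LFD in every library. The relative log2 level of Isl1 was 0.31 ± 0.08 (SD) for LFD, 0.28 ± 0.23 for HFD and -0.21 ± 0.06 for KD. Rfx6 went from 0.78 ± 0.34 for LFD and 1.13 ± 0.71 for HFD to 0.14 ± 0.11 for KD. For Pax6 the values were 1.17 ± 0.08 for LFD, 1.15 ± 0.14 for HFD and 0.90 ± 0.07 for KD. Nkx2-2 was higher relative to the set on KD, at -0.31 ± 0.09 against -0.60 ± 0.19 on LFD and -0.60 ± 0.05 on HFD. With Mafa these were 5 of the 10 factors whose KD and LFD libraries did not overlap on this scale, where 13% of all genes, set against the same geometric mean, did not overlap. That share is no like background, because the divisor was built from the factors and takes out spread that they share. Because the relative levels of the 10 factors sum to 0 in each library, they are not independent of each other, and the scale was chosen after the values had been seen, so no test of a diet difference is given on it.

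The same relative scale separated KD from HFD for Nkx2-2, Pax6, Isl1, Foxa2 and Rfx6, again 5 of 10, against 14.4% of all genes. The same limit on the share of all genes holds here and for HFD against LFD. Between HFD and LFD only Foxa2 showed no overlap, against 22.1% of all genes. Pdx1, Nkx6-1, Neurod1 and Mnx1 kept to overlapping relative levels in all comparisons. The difference between the KD and LFD means was 0.16 for Pdx1, 0.02 for Nkx6-1, -0.22 for Neurod1 and 0.09 for Mnx1 on the log2 scale.

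**Figure D3:**
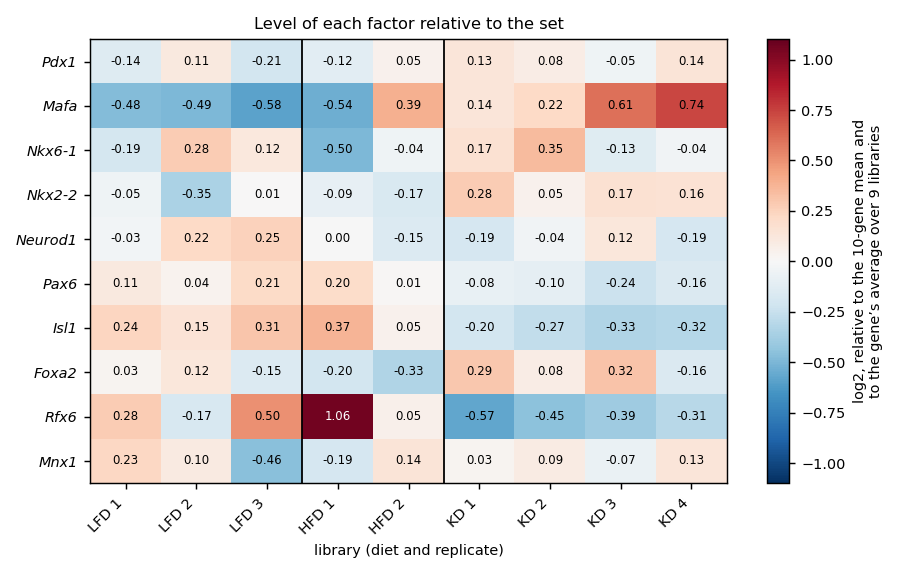
Log2 level of each factor (rows) in each library (columns, diets divided by lines) relative to the geometric mean of the 10 factors, shown as the departure from the gene's own average over the 9 libraries; red is higher and blue lower. Mafa is at or below -0.48 in the LFD libraries and between 0.14 and 0.74 in the KD libraries, and Isl1 and Rfx6 are negative in all 4 KD libraries.

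Within a diet the factors moved together from library to library. All 10 were lowest in KD replicate 1 among the KD libraries, where 29.7% of all genes were lowest, and 8 of 10 were highest in KD replicate 4, where 34.5% of all genes were highest. Among the LFD libraries 7 of 10 were lowest in replicate 1 (28.5% of all genes) and 9 of 10 highest in replicate 3 (38.6%). HFD replicate 2 exceeded HFD replicate 1 for 9 of 10 factors (47.1% of all genes). In each diet the library where most factors were lowest was also the one with the largest acinar share, and the library where most were highest had the smallest.

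The factors differed in how closely they followed that share. Over the 9 libraries the log2 CPM of Isl1 had a Pearson correlation with the acinar share of counts of -0.95 (exact permutation p = 4.68e-05, adjusted over the 10 relations 0.000468) and a Spearman rho of -0.98 (exact permutation p = 4.96e-05, adjusted 0.000496). Within every diet the order of Isl1 was the reverse of the order of acinar shares: 85.8, 61.3 and 55.4 CPM at 14.4%, 23.9% and 34.0% on LFD, 86.7 and 78.4 CPM at 10.7% and 17.9% on HFD, and 70.6, 56.2, 51.2 and 42.0 CPM at 19.5%, 42.5%, 53.9% and 57.9% on KD. Pax6 and Pdx1 showed the same reversed order within each diet, though over all 9 libraries Pdx1 had r = -0.38. Rfx6 kept the reversed order on KD but not on LFD, with 80.7 CPM at 34.0% and 69.2 CPM at 23.9%. Nor did Rfx6 keep it on HFD, with 178 CPM at 17.9% and 123 CPM at 10.7%. The correlation of Pax6 was r = -0.84 (exact permutation p = 0.00715, adjusted 0.0238) and rho = -0.90 (exact p = 0.00203, adjusted 0.0101). That of Rfx6 was r = -0.84 (exact permutation p = 0.00527, adjusted 0.0238) and rho = -0.83 (exact p = 0.00827, adjusted 0.0276).

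Without KD replicates 1 and 3, which lay farthest from the median share, the Pearson correlations were -0.92 for Isl1, -0.74 for Pax6 and -0.74 for Rfx6. None of the other 7 factors passed: r was -0.59 for Neurod1, -0.38 for Pdx1, -0.35 for Mnx1, -0.26 for Nkx6-1, -0.13 for Nkx2-2, -0.01 for Mafa and 0.14 for Foxa2, with exact permutation p from 0.0944 to 0.973 and adjusted p from 0.236 to 0.973. Their rho ran from -0.58 to 0.05, with exact permutation p from 0.108 to 0.912 and adjusted p from 0.270 to 0.912. The scaled library sizes and the acinar shares come from the same counts, the KD libraries supplied the largest shares, and no diet had enough libraries for a correlation of its own. On the relative scale, a relation added after the values had been seen, Foxa2 had r = 0.92 against the acinar share (exact permutation p = 0.000565, adjusted 0.00565; rho = 0.88, exact p = 0.00308, adjusted 0.0308; 0.81 without KD replicates 1 and 3). Isl1, Pax6 and Rfx6 were at -0.60, -0.60 and -0.64 there (exact permutation, adjusted p = 0.187 for each). The divisor of that scale contains Isl1, Pax6 and Rfx6, which fell with the share, while Foxa2 in CPM gave r = 0.14. The p-values on the relative scale therefore cannot show a relation of Foxa2 itself to the share.

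**Figure D4:**
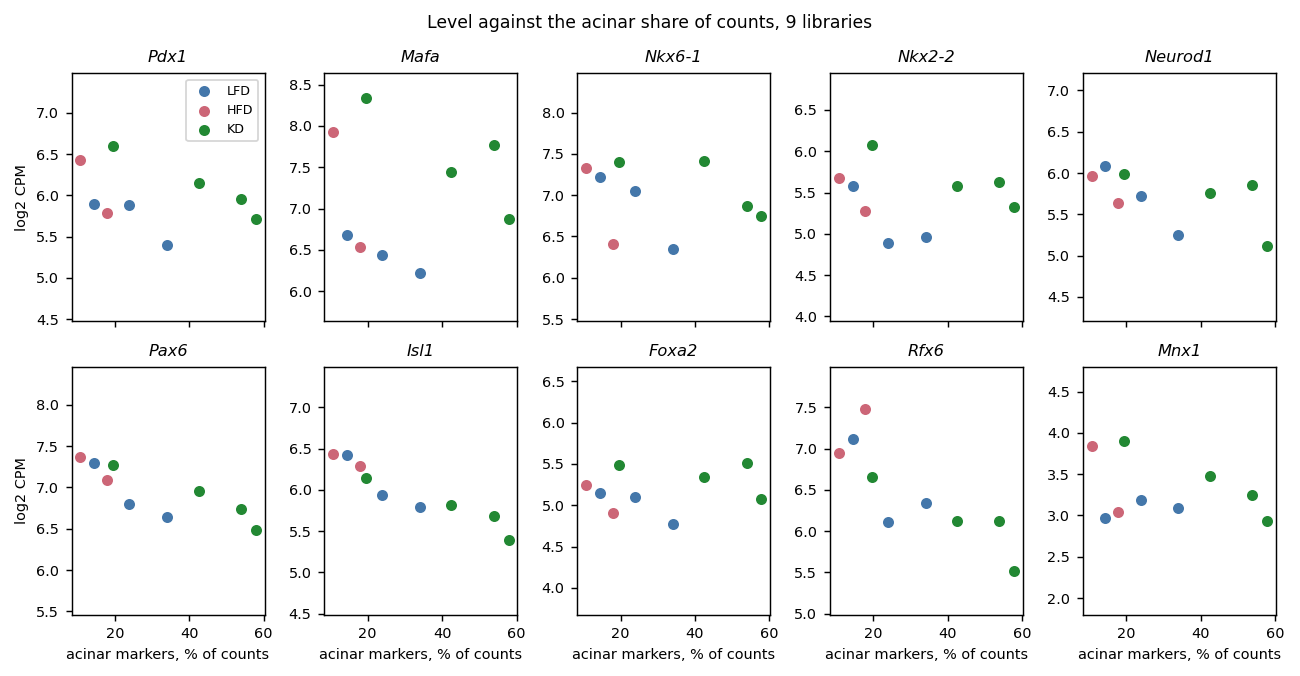
Log2 CPM of each factor (vertical axis, the same span of 3 log2 units in every panel) against the percent of counts from 20 acinar markers, 1 point per library coloured by diet. Isl1 descends along a single line through the diets (r = -0.95), whereas the KD libraries of Mafa lie above its LFD libraries (r = -0.01 over all 9). Only KD replicate 4, at 19.5%, lies within the LFD shares of 14.4% to 34.0%, so at the other KD shares there is no LFD library to compare.

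Correlations of log2 CPM between the factors themselves, computed for all 45 pairs after the levels had been seen, were above 0 for 43 pairs, with a median r of 0.64. Of the 45, 13 passed an exact permutation test after adjustment over the pairs. The test permuted libraries across the diets, and no share of passing pairs among other genes was computed. The count of 13 therefore has no background and cannot show a link particular to the factors. Pax6 and Isl1 gave r = 0.93 (exact permutation p = 0.000637, adjusted 0.00936; rho = 0.95, exact p = 0.000353, adjusted 0.00794), and Isl1 and Rfx6 r = 0.92 (exact permutation p = 0.000799, adjusted 0.00936; rho = 0.82, exact p = 0.0108, adjusted 0.0485). Without the 2 libraries farthest from the median of the first gene these were 0.86 and 0.89. Mafa and Nkx2-2 gave r = 0.89 (exact permutation p = 0.000832, adjusted 0.00936; rho = 0.97, exact p = 0.000165, adjusted 0.00744; 0.80 without the 2 farthest libraries).

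Pairs that join a gene of the Mafa side to Pax6, Isl1 or Rfx6 ranged widely, and the lowest were near 0. Mafa and Isl1 gave r = 0.13 (exact permutation p = 0.736, adjusted 0.788; rho = 0.17, exact p = 0.678, adjusted 0.762). Foxa2 and Rfx6 gave r = -0.15 (exact permutation p = 0.691, adjusted 0.758; rho = -0.10, exact p = 0.810, adjusted 0.889), and Isl1 and Foxa2 r = 0.0016 (exact permutation p = 0.997, adjusted 0.997; rho = 0.05, exact p = 0.912, adjusted 0.912). Pax6 gave 0.71 with Pdx1, 0.61 with Nkx2-2 and 0.45 with Mafa, and Neurod1 0.54 with Mafa and 0.84 with Pax6. All these points share the library, its depth and its acinar content.

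**Figure D5:**
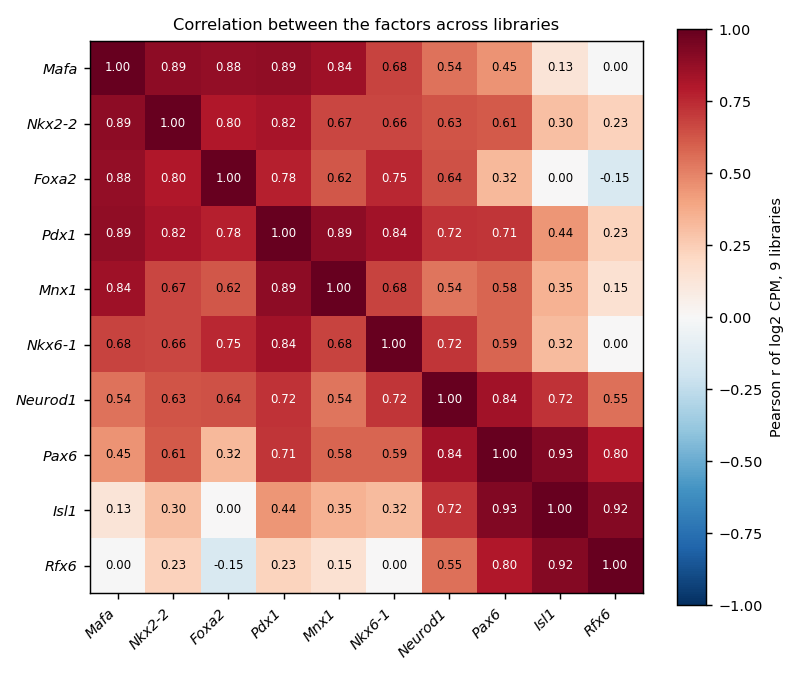
Pearson correlation of log2 CPM over the 9 libraries between every pair of factors, with genes ordered by hand so that similar ones are neighbours. Mafa, Nkx2-2, Foxa2, Pdx1 and Mnx1 are correlated at 0.62 or more with each other, and Pax6, Isl1 and Rfx6 at 0.80 or more.

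The genes whose log2 CPM followed the mean standardised pattern of the factors most closely were Gdap1l1 and Insm1 (r = 0.98 for each, rho = 0.95 and 0.97), Slc2a5 (r = 0.98, rho = 0.97), Susd4 (r = 0.97, rho = 0.97), Pgbd5 (r = 0.96, rho = 0.88) and Dhdh (r = 0.96, rho = 0.98). They are the 6 highest of 10425 named genes with a mean of at least 5 CPM, ranked over 9 libraries, and so carry no test. Insm1 encodes a zinc-finger factor of endocrine differentiation, and Slc2a5 the fructose transporter GLUT5.

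The bases upstream of the transcription start are shown for Isl1, Pax6 and Rfx6, the 3 genes whose correlation with the acinar share over the 9 libraries passed adjustment. The bases are also shown for Nkx2-2, whose correlation did not pass and whose window held a searched word. They are RefSeq windows on GRCm38.p6, written 5′ to 3′ on the strand of the gene, up to 250 bases before the start and ending before the first base of any exon in GENCODE M21. Capitals mark CCAAT, or CATCTG in Nkx2-2.
Isl1 (chr13:116309690-116309938, minus strand): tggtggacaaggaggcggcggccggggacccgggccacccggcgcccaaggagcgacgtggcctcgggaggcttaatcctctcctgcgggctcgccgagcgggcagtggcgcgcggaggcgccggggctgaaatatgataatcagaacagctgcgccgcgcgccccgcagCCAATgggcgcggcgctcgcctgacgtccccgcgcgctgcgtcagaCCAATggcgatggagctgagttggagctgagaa
Pax6 (chr2:105668646-105668895, plus strand): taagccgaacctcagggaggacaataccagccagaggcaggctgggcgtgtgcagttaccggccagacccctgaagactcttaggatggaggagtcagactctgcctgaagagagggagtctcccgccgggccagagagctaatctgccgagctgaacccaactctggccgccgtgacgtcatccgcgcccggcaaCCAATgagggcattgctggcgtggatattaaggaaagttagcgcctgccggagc
Rfx6 (chr10:51685268-51685517, plus strand): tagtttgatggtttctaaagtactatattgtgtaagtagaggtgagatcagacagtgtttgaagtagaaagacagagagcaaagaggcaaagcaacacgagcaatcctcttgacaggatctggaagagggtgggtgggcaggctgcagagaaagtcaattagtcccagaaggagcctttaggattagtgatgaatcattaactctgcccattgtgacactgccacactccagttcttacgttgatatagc
Nkx2-2 (chr2:147186456-147186652, minus strand): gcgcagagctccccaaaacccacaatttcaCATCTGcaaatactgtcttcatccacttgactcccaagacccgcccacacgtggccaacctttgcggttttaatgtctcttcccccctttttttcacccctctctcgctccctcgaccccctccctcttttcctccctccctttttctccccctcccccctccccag

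RefSeq windows were matched for 9 of the 10 genes, 12 windows in all, and Mafa was not matched. Recognition words of the families of these factors were searched on both strands of the 250 bases before each start. TAATTA (homeodomain proteins), TGTTTAC (FOXA), TAAGTG (NKX2) and GTTGCCA (RFX) were in none of the 12, and in 4.84%, 3.17%, 7.92% and 3.66% of the 32851 windows of all genes. CAGATG (NeuroD) was found once, as its reverse complement CATCTG 220 bases before the start of Nkx2-2, and is in 14.4% of all windows. TGCTGAC (MAF) was found once, in 1 of the 3 windows of Foxa2, against 3.81% of all windows. The words do not overlap one another where found. CCAAT, searched after the windows had been read, was in 5 of the 12 and in 33.8% of all windows. The 5 included that of Isl1 and the printed window of Pax6, but not the other window of Pax6 nor that of Rfx6. The guanine and cytosine content of the windows ran from 44.0% in Rfx6 to 71.2% in Isl1, with a median of 52.4% over all genes, and Isl1 held 33 CpG pairs where Rfx6 held 2.

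None of the genes listed as targets of the factors was called. Of 20 targets, such as the insulin genes, the glucose transporter Slc2a2 and the zinc transporter Slc30a8, edgeR called 0 for KD against LFD, with 1 at an unadjusted p below 0.05, 0 for HFD against LFD, with 0, and 0 for KD against HFD, with 3, where it called 4.12%, 0% and 0% of all genes. Of all genes, 22.7%, 9.99% and 22.7% reached that unadjusted level. Log2 fold changes were above 0 for 10, 17 and 3 of the 20, against 48.1%, 49.8% and 46.6% of all genes. The diets did not overlap for 2, 7 and 3 of the targets, against 19.7%, 27.5% and 33.9% of all genes. Their median log2 fold changes were -0.08, 0.30 and -0.26, beside -0.02, -0.0017 and -0.04 over all genes. Mean CPM of Ins1 was 13241 ± 3052 (SD) for the 3 LFD and 17681 ± 10211 for the 4 KD libraries, and that of Ins2 39896 ± 7196 and 35767 ± 19608, with edgeR adjusted p of 0.650 and 0.896. Slc2a2, which takes up glucose into the beta cell, stood at 373 ± 164 CPM (SD) for LFD, 339 ± 14.6 for HFD and 254 ± 58.2 for KD, with a KD minus LFD log2 fold change of -0.55 (SE 0.26, edgeR adjusted p = 0.234).

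Among 30 other islet transcription factors, 27 passed the low-count filter and 1 was called, lower on KD than on LFD, a share near the 4.12% of all genes called. It was Hhex, a homeodomain factor of delta cells, with a mean of 15.7 ± 2.78 CPM (SD) over the 3 LFD libraries, 8.49 ± 0.27 over the 4 KD and 8.69 ± 0.73 over the 2 HFD libraries. KD minus LFD gave Hhex -0.88 on the log2 scale (SE 0.16, adjusted p = 0.0181 by edgeR). Of the 5 delta and PP cell markers, Hhex was the 1 called in that comparison. Their log2 fold changes had a median of -0.01, with 2 of the 5 above 0, against 48.1% of all genes. Of 13 exocrine and duct factors, 2 were called lower on KD than on LFD, the epithelial factors Elf3 (log2 fold change -1.41, SE 0.24, edgeR adjusted p = 0.0124) and Ehf (-0.98, SE 0.20, edgeR adjusted p = 0.0237). Of the 13, 6 were above 0, none of them called. Log2 fold changes of the acinar factors Bhlha15, Rbpjl and Ptf1a, picked out after their values had been seen, were 1.68, 1.404 and 1.33 (edgeR adjusted p = 0.0599, 0.223 and 0.149). Those of Gata4, Nr5a2 and Xbp1, the rest of the 6, were 1.39, 0.59 and 0.47 (edgeR adjusted p = 0.133, 0.575 and 0.307). Of the 10 duct markers 4 were also called lower and none was at 0 in any library, with a sum of 0.0615% to 0.0674% of counts on LFD and 0.0258% to 0.0417% on KD, and their part in these values was not tested.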

How the data were processed

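Islet RNA was sequenced from 9 libraries, and the authors deposited raw counts per Ensembl gene, with 1 column per library matched by the identifier in its title. Per the submitters' processing notes, cutadapt 1.16, STAR 2.7.9a, featureCounts 1.6.3, DESeq2 1.40.2 and the build GRCm39 were named. Strand setting, multi-mapping rule and annotation release are not given in the sources used here, and no sequencing or isolation batch was named in the labels, so a batch effect was not tested.

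Symbols matched 51948 of 56941 identifiers. Genes were filtered by filterByExpr with diet as group, libraries scaled by TMM and tested with edgeR 4.0.16 (robust glmQLFit and glmQLFTest, a mean per diet over all 9 libraries, two-sided) in R 4.3.3, with Benjamini-Hochberg adjustment over the 18548 genes tested and a threshold of 0.05. SE is the log2 fold change over the square root of F. Lengths are GENCODE M21 merged exons. Correlations used log2 CPM (log2(CPM + 1) for the search of similar genes) and two-sided exact permutation tests over all 362880 orders, in place of the sampled permutations first planned. Alternatives used DESeq2 1.42.0 and limma 3.58.1. Recovery of known changes was tested on simulated data. There edgeR called 38% of 2-fold changes for KD minus LFD, 17% for HFD minus LFD and 25% for KD minus HFD. For 4-fold changes the shares were 75%, 59% and 66%, so a count of 0 called does not exclude changes of that size. No libraries of a diet agreed within sampling noise (smallest mean chi-square per gene 25.0).

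The factors, gene lists and tests were chosen with earlier results of these data known. Genes named were the 10 factors, Ins1, Ins2, Slc2a2, called genes of the lists (up to 4 each) and the 6 most similar genes; some genes the rule names are not reported here.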

Additional observations from a re-analysis of the deposited data

Results flagged for a closer look

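Ehf in KD replicate 1, at 25.1 CPM, stood apart from the other KD libraries, of which the lowest measured 19.6 CPM. Its gap to the nearest library was 0.928 of the range of the 4, above Dixon's critical value for 4 libraries. It was 1 of 44 sets of KD values examined, where chance gives about 1 in 20, and none of the 10 factors met the same limit in CPM or relative to the set.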

How the results depend on the processing

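The count of factors called, 0 by edgeR in every comparison, moved with the test and the model. For KD against LFD it was 3 with the acinar covariate, 2 with limma-voom, 1 with DESeq2 and 1 with the replicate number as a block. For KD against HFD it was 3 with the replicate block and 1 with DESeq2, and for the joint test 3 with the acinar covariate, 3 with the replicate block, 2 with DESeq2 (likelihood ratio test, 12.6% of all genes) and 1 with limma-voom (8.58%). Leaving out 1 library gave 0 throughout for KD against LFD and HFD against LFD, 0 to 2 for KD against HFD and 0 to 1 for the joint test, both maxima without KD replicate 4. The remaining alternatives gave 0.

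Whether the replicate numbers pair the libraries is not given in the labels. Correlations of deviations between libraries with the same number ran from -0.07 to 0.37, not above 0.1 in every pair, so the numbers were not used as pairs, and 4 of 9 libraries were most like one with their own number. In each diet, replicate 1 was lowest for most factors and had the largest acinar share. The block called Mafa for KD against LFD (log2 fold change 0.90, adjusted p = 0.0200, over a range of 0.0104 to 0.281), and Pax6, Isl1 and Rfx6 for KD against HFD (-0.60, -0.84 and -1.48), and it turned Mafa and Nkx2-2 in KD minus HFD to -0.064 and -0.11. It called 10.8%, 12.5% and 15.2% of all genes for KD against LFD, KD against HFD and the joint test.

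Scaling by pan-endocrine genes shifted the median of all genes to -0.22 for KD minus LFD, -0.43 for HFD minus LFD and 0.18 for KD minus HFD, and that of the factors to 0.03, -0.07 and 0.10. With those medians not subtracted, log2 fold changes for HFD minus LFD turned to -0.34 for Nkx6-1, -0.066 for Nkx2-2, -0.29 for Neurod1, -0.079 for Pax6, -0.10 for Isl1, -0.33 for Foxa2 and -0.017 for Mnx1. For KD minus HFD they turned to 0.14 for Pdx1, 0.073 for Neurod1 and 0.065 for Mnx1. With the acinar covariate, KD minus LFD turned to 0.35 for Neurod1, 0.32 for Pax6 and 0.034 for Isl1. HFD minus LFD turned to -0.39 for Nkx6-1, -0.20 for Neurod1, -0.0082 for Pax6 and -0.072 for Foxa2, and KD minus HFD to 0.75 for Pdx1, 0.55 for Neurod1, 0.33 for Pax6, 0.019 for Isl1 and 0.58 for Mnx1.

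Pdx1 in KD minus HFD, at -0.0052, also changed sign with DESeq2 size factors (0.016), TMM without acinar and hormone genes (0.012), no filter (0.0024), only the groups compared (0.0089) and DESeq2 (0.016). Limma-voom turned KD minus LFD to 0.23 for Neurod1 and 0.11 for Pax6. Leaving out 1 library, the sign turned within these ranges for KD minus LFD: -0.20 to 0.21 for Neurod1 and -0.20 to 0.17 for Pax6. For HFD minus LFD the ranges were -0.51 to 0.41 for Nkx6-1, -0.12 to 0.31 for Neurod1, -0.11 to 0.23 for Foxa2 and -0.042 to 0.75 for Mnx1. For KD minus HFD they were -0.28 to 0.35 for Pdx1, -0.22 to 1.18 for Mafa, -0.19 to 0.74 for Nkx6-1, -0.24 to 0.085 for Neurod1 and -0.39 to 0.40 for Mnx1. The correlation of Mafa with the acinar share of the scaled library size was 0.051. The cause of these moves was not tested. Of the fold changes recomputed, 504 kept their direction and their side of the threshold, 13 passed it and 53 changed sign. With 2 HFD libraries, intervals that involve HFD were the widest.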

Other observations

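The factors Irx1 and Irx2 of alpha cells, the glucagon-secreting cells of the islet, were higher on KD than on HFD in libraries that did not overlap, though edgeR called neither of them and 33.9% of all genes showed no overlap there. These genes were picked after their values had been seen. Irx1 averaged 4.46 CPM on HFD and 9.57 CPM on KD (log2 fold change 1.11, SE 0.33, edgeR adjusted p = 0.124) and Irx2 8.04 and 13.3 CPM (0.74, SE 0.26, edgeR adjusted p = 0.147). The 6 alpha cell markers, which are led by Gcg and include these genes, together measured 5933 and 9307 CPM on HFD and 7589 to 16996 CPM on KD, which overlapped.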
